A study of Homo sapiens with 5 samples.

Results

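The transcripts of 41 DNA repair genes were compared between libraries labelled pos and neg of SW620, a cell line from a human colon carcinoma. The genes were taken by symbol from a list of repair genes, and all 41 were found among the 25343 gene rows of the deposited table. Every one of them had enough reads to be tested, with 22 to 9712 reads per library. The cells carried a tetracycline-inducible short hairpin RNA against MUC1, a gene for a transmembrane mucin, and this construct was present in both groups. The pos group had 2 libraries (replicates 1 and 3) and the neg group 3 (replicates 1, 2 and 3). The labels name vehicle and doxycycline as the treatments, give neither dose nor time, and do not say which name stands for which treatment. No library with a control hairpin was analysed here, and whether the line was a single clone is not stated.

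Cells mend broken or mispaired DNA by several routes that share signalling proteins. Homologous recombination copies the intact sister chromatid with the help of BRCA1 and BRCA2, and it works mainly after replication. The Fanconi proteins unhook crosslinks between the strands. End joining ligates broken ends directly through the Ku dimer and its kinase. Mismatch repair corrects replication errors, and in the colon its loss gives tumours with unstable microsatellites. Base excision removes single damaged bases such as uracil and seals the nick through XRCC1.

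Among the 41 genes, 2 rose and 0 fell in pos by edgeR's quasi-likelihood test, with p-values adjusted over 13604 tested genes by Benjamini-Hochberg and a threshold of 0.05. The 2 were UNG, the uracil-DNA glycosylase that starts base excision, and XRCC1, the scaffold on which single-strand breaks are sealed. They made up 4.88% of the members, against 5.06% of all tested genes called higher and 4.13% called lower. The share called higher was near that of all tested genes, and no member was among the genes called lower. At an unadjusted p under 0.05 there were 7 members higher and 2 lower, beside 19.1% and 15.5% of all tested genes. DESeq2 called 5 members higher and 2 lower, beside 13.2% and 10% of all tested genes. The median log2 fold change of the members was 0.07, that of all tested genes -0.05. The smallest p that 2 libraries against 3 allow in a two-sided exact permutation test of a single value is 0.2, so single genes were judged from the fit across all genes.

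The windows around the annotated starts of UNG and XRCC1 are shown because these were the 2 members called in pos. Each runs from 250 bases before to 50 bases after a RefSeq start (GRCh38.p14), and UNG has 2 such starts, whose reads the gene counts do not separate. Capitals mark matches, on either strand, to the CCAAT box (CCAAT), the GC box (GGGCGG) or an E2F motif (TTTCCCGC, TTTCGCGC, TTTGCCGC or TTTGGCGC). The first UNG window is at chr12:109097347-109097646 and the second at chr12:109097922-109098221, both on the plus strand. The XRCC1 window is at chr19:43575478-43575777 on the minus strand.
UNG, first start: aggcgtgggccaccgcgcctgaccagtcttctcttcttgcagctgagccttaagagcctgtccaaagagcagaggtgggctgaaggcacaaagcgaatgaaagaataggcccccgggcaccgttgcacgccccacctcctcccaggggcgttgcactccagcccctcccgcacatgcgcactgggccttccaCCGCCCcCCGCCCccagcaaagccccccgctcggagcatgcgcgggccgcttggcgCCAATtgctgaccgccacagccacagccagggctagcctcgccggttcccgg
UNG, second start: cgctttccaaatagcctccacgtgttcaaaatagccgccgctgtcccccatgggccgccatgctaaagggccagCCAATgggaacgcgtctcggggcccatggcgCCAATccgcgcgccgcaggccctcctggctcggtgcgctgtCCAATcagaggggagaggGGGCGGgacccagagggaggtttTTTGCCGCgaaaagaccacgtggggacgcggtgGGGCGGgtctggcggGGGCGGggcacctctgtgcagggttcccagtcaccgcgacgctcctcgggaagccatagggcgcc
XRCC1: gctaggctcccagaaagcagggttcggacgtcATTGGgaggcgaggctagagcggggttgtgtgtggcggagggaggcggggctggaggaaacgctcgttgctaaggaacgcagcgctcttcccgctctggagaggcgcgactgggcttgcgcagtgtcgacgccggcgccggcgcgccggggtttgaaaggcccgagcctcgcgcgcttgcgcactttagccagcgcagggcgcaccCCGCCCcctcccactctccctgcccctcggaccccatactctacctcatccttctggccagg
The second UNG window held 1 E2F match, 63 bases before the start, with 3 CCAAT and 3 GC boxes. The XRCC1 window held no E2F match, 1 CCAAT box and 1 GC box. Of 36 members with a RefSeq window, 10 held an E2F match (EXO1, FANCA, FANCC, FANCD2, MSH3, MSH6, PMS2, UNG, XRCC2 and XRCC6) in at least 1 window, against 3.99% of all 27305 genes counted the same way and 3.31% of all 35116 single windows. A GC box stood in 29 of the 36 and a CCAAT box in 19, against 48.3% and 39.7% of all genes counted the same way. The motif TTTGAA, found in promoters of mitotic genes, was in 5 of the 36, UNG and XRCC1 among them, and in 18.2% of all genes. A match is a string of letters and not a measured binding site, and of the 10 members with an E2F match UNG was called in the edgeR fit to the counts as deposited, XRCC6 in DESeq2 and with the length trend removed, and FANCD2 with another length measure.

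The libraries differed from each other in ways that bear on every gene below. Totals were 12190025 and 13470767 reads in pos replicates 1 and 3, and 10888704 to 14137678 in neg. MUC1, the hairpin's target, had 27 and 13 reads in pos, against 176, 252 and 218 in neg. Long transcripts were scarce in pos replicate 3. Set against the mean of neg, its log2 ratio had a median of -1.25 in the longest 20% of transcripts and of 1.19 in the shortest 20%, while pos replicate 1 had -0.26 and 0.37. Across genes, log2 levels of the pos libraries correlated at Pearson r = 0.912, and neg pairs at 0.983 to 0.993 (genes are not independent replicates). Of 10 colon epithelial markers, 7 and 9 had reads in pos and 9 to 10 in neg, with CDX1 and LGALS4 near 0 in every library. Their summed level was 7693 and 16325 CPM (read counts scaled to library size, TMM-normalised) in pos and 5541 to 7373 CPM in neg. Most of it was keratin: KRT8, KRT18 and KRT19 had 7637, 5660 and 2198 CPM in pos replicate 3. Of the 8 markers tested, 6 had a positive log2 fold change, CDX2 among them (2.18, SE 0.33, edgeR adjusted p = 0.0337). The 2 negative ones were KRT20 (-3.05, SE 0.94) and CEACAM5 (-0.54, SE 0.37). Of 5 fibroblast and vessel markers, COL1A2 and COL3A1 had 0 reads in every library, and the sum was 7.04 and 6.22 CPM in pos and 16.1 to 16.5 CPM in neg, nearly all of it COL1A1. Of 4 blood cell markers only CD14 had reads, at most 1.79 CPM in any library. The part of these shifts in the results below was not tested.

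**Figure D1:**
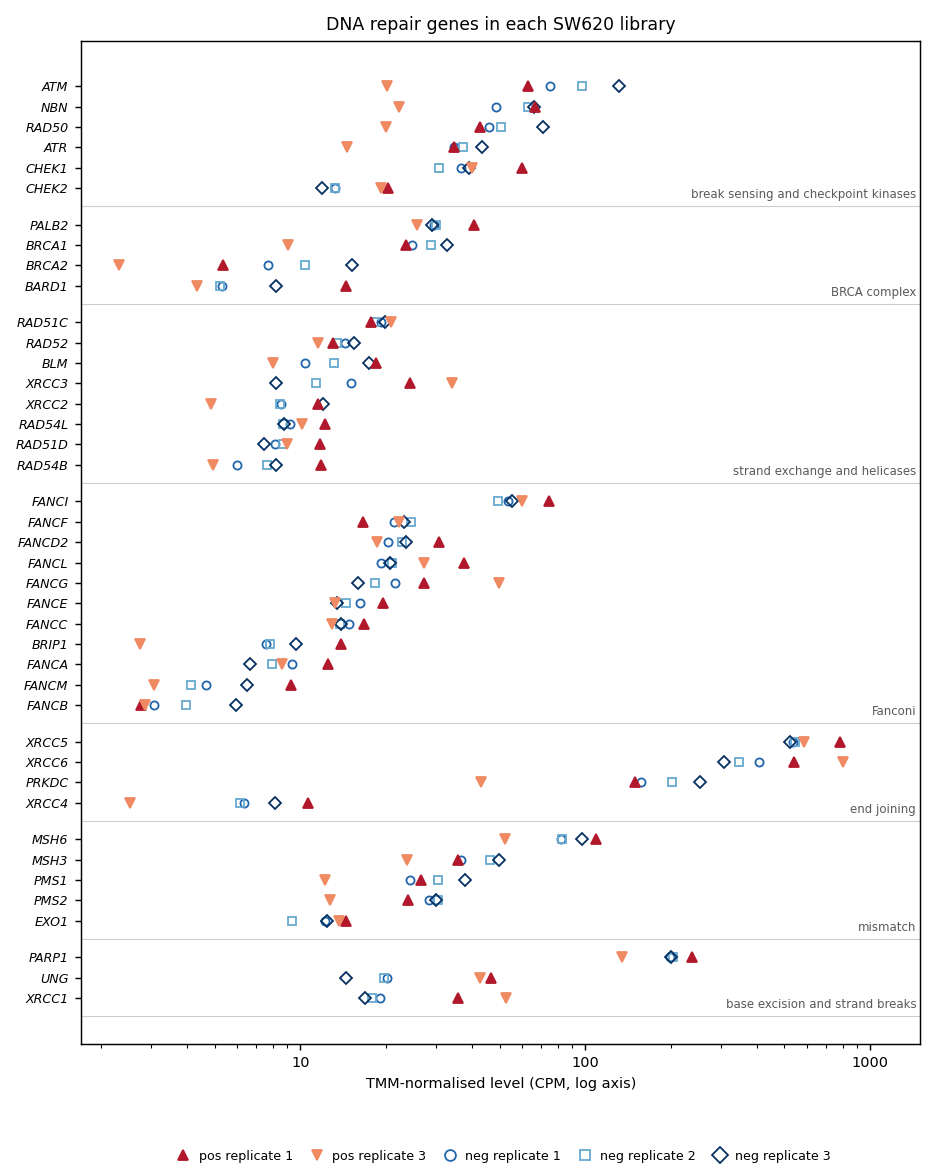
TMM-normalised level in CPM (log axis) of each of the 41 genes in every library, grouped by role. Filled triangles are the 2 pos libraries and open symbols the 3 neg libraries, and pos replicate 3 is the leftmost symbol for long genes such as ATM, PRKDC and BRCA2.

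The pos libraries often pointed opposite ways. For 15 of 41 members (36.6%) they lay on opposite sides of the neg mean, as they did for 28.3% of all tested genes. Relative to that mean 28 members were higher in pos replicate 1, and 15 in pos replicate 3, with median log2 ratios of 0.45 and -0.32. Both pos libraries lay above all neg libraries for 13 members (31.7%, against 26.7% of all tested genes) and below them for 10 (24.4%, against 29.3%). The median member transcript was 4128 nt long and the median tested gene's 3242 nt. Over the 41 members, log2 ratio and log2 length correlated at Pearson r = -0.70 and Spearman rho = -0.66 in pos replicate 3, and at -0.48 and -0.38 in pos replicate 1. The points share their libraries, and the same trend ran through all tested genes (r = -0.62 and -0.23). In the 14 shortest members, of 1602 to 3078 nt, the median log2 ratio was 0.62 in pos replicate 1 and 0.30 in pos replicate 3. In the 14 longest, from 5093 nt up, it was 0.16 and -1.30.

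**Figure D2:**
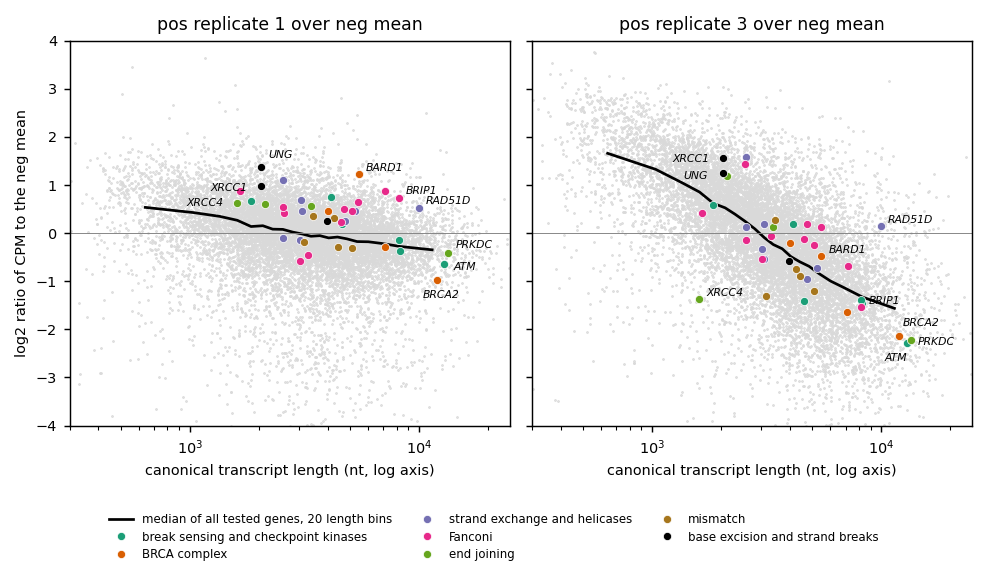
Log2 ratio of CPM to the neg mean (y axis) against canonical transcript length in nt (x axis, log scale), for pos replicate 1 on the left and pos replicate 3 on the right. Grey points are all tested genes, cut off beyond 4 on the y axis, the line is their median in 20 length bins, and coloured points are the 41 members. In pos replicate 3 ATM, PRKDC and BRCA2 sit at -2.28, -2.21 and -2.13 at the long end, while XRCC4 sits far under the line at 1602 nt.

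With each library's trend of level on transcript length taken off, 7 members rose and 0 fell in pos (edgeR, adjusted p of 0.05), which is 17.1% of members, against 7.33% of tested genes higher and 6.74% lower in the same fit. They were UNG, XRCC1, XRCC3, XRCC6, CHEK1, FANCI and RAD51D. The median log2 fold change of the members was then 0.24, and 0.01 for all tested genes. This count depended on how length was measured. With the median length of a gene's coding transcripts in place of the canonical one, 5 rose (UNG, XRCC1, FANCI, FANCD2 and XRCC5) and 0 fell, against 6.37% of tested genes higher and 5.39% lower. UNG, XRCC1 and FANCI passed under both measures.

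**Figure D3:**
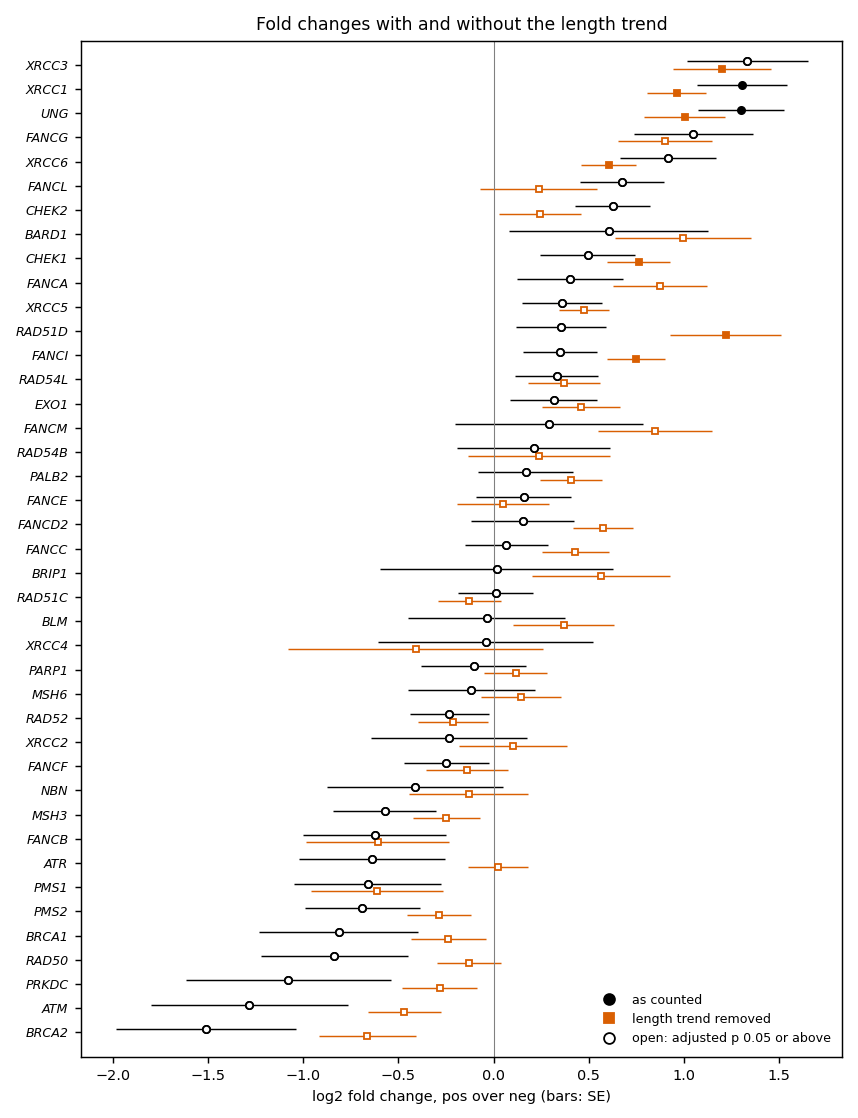
Log2 fold change of pos over neg with its SE for all 41 members, ordered by the value as counted. Circles are values as counted and squares values with the length trend removed, filled where the adjusted p was under 0.05. UNG and XRCC1 are filled in both, and the long genes at the bottom lie nearer to 0 as squares.

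Base excision and single-strand break genes held both called members. UNG had 46.6 and 42.6 CPM in pos replicates 1 and 3, against 20.2, 19.7 and 14.5 CPM in neg replicates 1, 2 and 3. Both pos libraries lay above every neg library, and they were close to each other. Its group levels were 44.6 ± 2.84 CPM in pos (SD, n = 2) and 18.1 ± 3.17 CPM in neg (SD, n = 3), a 2.46-fold rise (log2 fold change 1.30, SE 0.23, edgeR adjusted p = 0.0382). With the length trend removed the log2 fold change was 1.004 (SE 0.21, edgeR adjusted p = 0.0323). UNG was 1 of 4 members that also serve as markers of the G1/S phase. The others were not called: the resection nuclease EXO1 (log2 fold change 0.32), the helicase BLM (-0.04) and the helicase BRIP1 (0.02).

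XRCC1 had 35.7 and 52.8 CPM in pos, against 19.02, 17.9 and 16.8 CPM in neg. The groups did not overlap, and pos replicate 3, rich in short transcripts, was the higher pos library. Group levels were 44.3 ± 12.1 CPM in pos (SD, n = 2) and 17.9 ± 1.11 CPM in neg (SD, n = 3), a 2.47-fold rise (log2 fold change 1.30, SE 0.24, edgeR adjusted p = 0.0387). After removal of the trend on length it was 0.96 (SE 0.15, edgeR adjusted p = 0.0177). Its transcript of 2052 nt is nearly as long as that of UNG, 2048 nt. XRCC1 shares exonic sequence with an annotated coding gene on its own strand, which makes its count less certain. It lies on chromosome 19 from 43543311 to 43580473 (minus strand) and UNG on chromosome 12 from 109097597 to 109126725 (plus strand) in GENCODE 44 on GRCh38. PARP1, which senses strand breaks and recruits XRCC1, was not called. It had 238 and 135 CPM in pos, against 198, 203 and 201 CPM in neg, so that pos lay on both sides of neg (log2 fold change -0.11, SE 0.27, edgeR adjusted p = 0.799). Leaving out any one neg library ended the UNG and XRCC1 calls (edgeR adjusted p = 0.178 to 0.217), as it did for every tested gene, while their log2 fold changes stayed between 1.16 and 1.38. Without pos replicate 3 they were 1.33 for UNG and 0.97 for XRCC1.

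**Figure D4:**
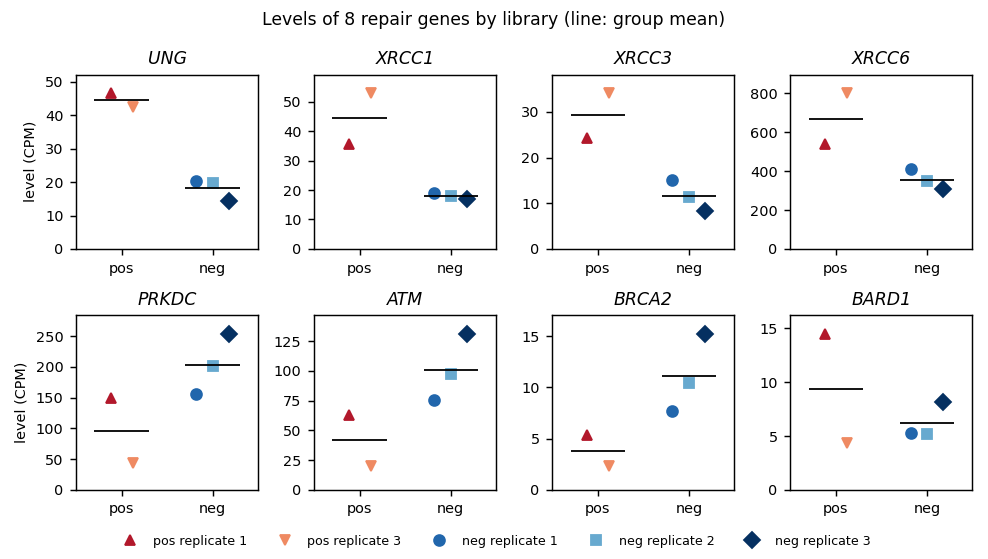
Level in CPM (y axis, from 0) of 8 members in each library, pos left of neg, with a line at each group mean. UNG and XRCC1 separate the groups with both pos libraries high, PRKDC, ATM and BRCA2 are lowest in pos replicate 3, and BARD1 has its highest and lowest value in pos.

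End joining begins when the Ku dimer, XRCC6 (Ku70) with XRCC5 (Ku80), caps a broken end and draws in the kinase PRKDC. The Ku genes had the highest levels per kilobase of all members, 315 and 203 CPM per kb in pos and 167 and 158 CPM per kb in neg for XRCC6 and XRCC5. XRCC6 had 538 and 800 CPM in pos, against 409, 348 and 307 CPM in neg. Pos lay above neg without overlap, at a 1.89-fold ratio that did not pass (log2 fold change 0.92, SE 0.25, edgeR adjusted p = 0.0680). It passed in DESeq2 (adjusted p = 0.0153) and in edgeR once the length trend was removed (0.60, adjusted p = 0.0400), though not with median transcript length (edgeR adjusted p = 0.0514). XRCC5 had 786 and 586 CPM in pos, against 538, 543 and 522 CPM in neg. This was a smaller difference, also without overlap (log2 fold change 0.36, SE 0.21, edgeR adjusted p = 0.260).

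PRKDC, the catalytic subunit of DNA-dependent protein kinase, had 150 and 42.9 CPM in pos, against 157, 201 and 254 CPM in neg. Only pos replicate 3 was far under neg, and pos replicate 1 lay just under the lowest neg library. The log2 fold change was -1.08 (SE 0.54, edgeR adjusted p = 0.205), and -0.28 after removal of the length trend. Its transcript of 13459 nt is the longest of the 41. XRCC4, the partner of the ligase that closes the break, had 10.7 and 2.53 CPM in pos, against 6.36, 6.16 and 8.12 CPM in neg. It was above every neg library in pos replicate 1 and below every one in pos replicate 3, which had 24 reads. XRCC4 has the shortest canonical transcript of the 41 (1602 nt), and with the length trend removed its log2 ratio there was -2.20.

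Recombination starts from the BRCA complex. BRCA1, which with BARD1 forms a ubiquitin ligase at breaks, had 23.5 and 9.07 CPM in pos, against 24.7, 28.7 and 32.8 CPM in neg. Both pos libraries were below neg, replicate 1 only slightly (log2 fold change -0.81, SE 0.42, edgeR adjusted p = 0.215; -0.24 with the length trend removed). BARD1 had 14.5 and 4.32 CPM in pos, against 5.31, 5.22 and 8.20 CPM in neg. The pos libraries enclosed all neg values (log2 fold change 0.60, SE 0.52, edgeR adjusted p = 0.428). PALB2, the bridge between BRCA1 and BRCA2, had 40.6 and 25.6 CPM in pos, against 29.5, 30.0 and 29.0 CPM in neg, again on both sides of neg (log2 fold change 0.17, SE 0.25). BRCA2, which prepares the broken strand for recombination, had 5.34 and 2.32 CPM in pos, against 7.69, 10.4 and 15.2 CPM in neg. It had the lowest log2 fold change of all members, -1.51 (SE 0.47, edgeR adjusted p = 0.0858; DESeq2 adjusted p = 0.0177), and -0.66 after removal of the length trend (edgeR adjusted p = 0.124).

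The genes for strand exchange were scattered around 0, with a median log2 fold change of 0.11 over 8 members. XRCC3, which acts with RAD51C late in recombination, stood apart. It had 24.4 and 34.1 CPM in pos, against 15.1, 11.4 and 8.20 CPM in neg. Pos was higher without overlap, at the largest log2 fold change of all members, 1.33 (SE 0.32), which missed the threshold (edgeR adjusted p = 0.0532). It passed in DESeq2 (adjusted p = 0.00408) and in the fit corrected for length (1.20, edgeR adjusted p = 0.0327), though not with median transcript length (edgeR adjusted p = 0.0586). XRCC3 shares exonic sequence with KLC1 on the other strand, and the strand setting of the counting is not given in the sources used here. Its partner RAD51C had 17.7 and 20.8 CPM in pos, against 19.2, 18.3 and 19.8 CPM in neg, with the groups overlapping (log2 fold change 0.01, SE 0.20).

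RAD51D and XRCC2, which act together early in strand exchange, did not pass either. RAD51D had 11.7 and 8.96 CPM in pos, against 8.18, 8.68 and 7.47 CPM in neg (log2 fold change 0.35, SE 0.24, edgeR adjusted p = 0.317). Its call with the length trend removed (1.22, edgeR adjusted p = 0.0418) rests on a canonical transcript of 9966 nt, and with median transcript length it was 0.39 (edgeR adjusted p = 0.243). XRCC2 had 11.5 and 4.85 CPM in pos, against 8.53, 8.49 and 12.1 CPM in neg, with pos replicate 3 the lowest library (log2 fold change -0.23, SE 0.41). The annealing factor RAD52 was at -0.23 (SE 0.21), and the DNA translocases RAD54L and RAD54B at 0.33 (SE 0.22) and 0.21 (SE 0.40). RAD54B had 11.8 and 4.96 CPM in pos, against 6.01, 7.67 and 8.20 CPM in neg. BLM, which dissolves crossed strands, had 18.4 and 8.01 CPM in pos, against 10.4, 13.1 and 17.4 CPM in neg. In both genes pos replicate 1 was the highest library and pos replicate 3 the lowest.

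Of 11 Fanconi genes, 9 had a positive log2 fold change and 2 a negative one, with a median of 0.16. None was called by edgeR. At an unadjusted p under 0.05 there were 2 higher (19.1% of all tested genes), and DESeq2 called 1 higher, FANCG (13.2% of all tested genes). FANCG, FANCA, FANCB, FANCC, FANCE, FANCF and FANCL belong to the core complex, in which FANCL is the ubiquitin ligase, and FANCM anchors it to DNA. FANCG had 27.1 and 49.97 CPM in pos, against 21.5, 18.3 and 16.0 CPM in neg, higher without overlap and most so in pos replicate 3 (log2 fold change 1.05, SE 0.31, edgeR adjusted p = 0.0781; DESeq2 adjusted p = 0.0239). FANCL had 37.5 and 27.2 CPM in pos, against 19.2, 20.9 and 20.7 CPM in neg, also without overlap. Its log2 fold change was 0.67 (SE 0.22, edgeR adjusted p = 0.0937), and 0.24 after removal of the length trend. The other core genes lay between -0.62 for FANCB, the gene on the X chromosome, and 0.40 for FANCA, with FANCF at -0.25, FANCC at 0.07 and FANCE at 0.16. FANCM had 9.31 and 3.06 CPM in pos, against 4.68, 4.15 and 6.51 CPM in neg, so that both extremes were pos libraries (log2 fold change 0.29, SE 0.49).

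The core complex ubiquitinates the pair FANCI and FANCD2, the step that switches the pathway on. FANCI had 74.5 and 60.1 CPM in pos, against 53.8, 49.5 and 55.2 CPM in neg. Pos was higher in both libraries (log2 fold change 0.35, SE 0.19, edgeR adjusted p = 0.243), and the gene passed with the length trend removed (0.75, SE 0.15, edgeR adjusted p = 0.0292). FANCD2 had 30.7 and 18.6 CPM in pos, against 20.3, 22.8 and 23.5 CPM in neg, with pos on both sides (log2 fold change 0.15, SE 0.27). It was at 0.57 with the length trend removed (edgeR adjusted p = 0.0568). BRIP1, a helicase bound to BRCA1, had 13.9 and 2.74 CPM in pos, against 7.55, 7.80 and 9.65 CPM in neg. Its pos libraries were the highest and the lowest of all 5, and their mean, 8.33 ± 7.90 CPM (SD, n = 2), equalled that of neg, 8.33 ± 1.14 CPM (SD, n = 3). With the length trend removed, 9 of the 11 Fanconi genes were positive, with a median of 0.56.

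Of 6 break sensing and checkpoint genes 4 had a negative log2 fold change and 2 a positive one. EdgeR called none, beside 5.06% of all tested genes higher and 4.13% lower. DESeq2 called ATM lower, beside 10% of all tested genes. The MRN complex holds the broken ends through RAD50 and signals through NBN, and the kinases ATM and ATR pass the signal to CHEK2 and CHEK1. ATM had 62.8 and 20.1 CPM in pos, against 75.2, 97.1 and 131 CPM in neg. Both pos libraries were lower (log2 fold change -1.28, SE 0.52, edgeR adjusted p = 0.142; DESeq2 adjusted p = 0.0392), and the value was -0.47 with the length trend removed and -1.57 with median transcript length. ATR had 34.7 and 14.5 CPM in pos, against 34.8, 37.3 and 43.3 CPM in neg, so that only pos replicate 3 was clearly lower. Its log2 fold change was -0.64 (SE 0.38), and 0.02 with the length trend removed. RAD50 had 42.6 and 20.03 CPM in pos, against 46.1, 50.6 and 71.3 CPM in neg (log2 fold change -0.84, SE 0.38). The RAD50 value was -0.13 with the length trend removed and -0.90 with median transcript length. NBN had 66.7 and 22.1 CPM in pos, against 48.7, 62.9 and 66.1 CPM in neg, with pos holding both the highest and the lowest value.

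The effector kinases had positive log2 fold changes. CHEK1, which restrains entry into mitosis, had 59.8 and 39.96 CPM in pos, against 36.5, 30.6 and 39.2 CPM in neg. Pos was higher, in replicate 3 by little (log2 fold change 0.49, SE 0.25, edgeR adjusted p = 0.208), and CHEK1 passed with the length trend removed (0.76, SE 0.17, edgeR adjusted p = 0.0350), though not with median transcript length (edgeR adjusted p = 0.396). CHEK1 shares exonic sequence with STT3A on its own strand, which makes its count less certain. CHEK2 had 20.3 and 19.2 CPM in pos, against 13.3, 13.2 and 11.9 CPM in neg. Both groups were tight and apart, at a 1.54-fold ratio that did not pass (log2 fold change 0.63, SE 0.20, edgeR adjusted p = 0.0856). It was 0.24 with the length trend removed. Reads of CHEK2, like those of PMS2, can be shared with near-identical pseudogene copies, so both counts are uncertain.

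Of 5 mismatch repair genes 4 had a negative log2 fold change. None was called by edgeR, beside 5.06% of all tested genes higher and 4.13% lower, or by DESeq2, beside 13.2% and 10%. At an unadjusted edgeR p under 0.05 there were 0, beside 19.1% and 15.5% of all tested genes. MSH6 and MSH3 give the 2 recognition dimers their specificity, MSH6 for single mispairs and MSH3 for loops. MSH6 had 109 and 52.1 CPM in pos, against 82.3, 82.9 and 97.2 CPM in neg, with pos at both extremes (log2 fold change -0.12, SE 0.33). MSH3 had 35.8 and 23.6 CPM in pos, against 36.6, 46.4 and 49.8 CPM in neg, lower in both pos libraries (log2 fold change -0.57, SE 0.27, edgeR adjusted p = 0.187; -0.25 with the length trend removed). PMS1 and PMS2, partners in the downstream dimers, were at -0.66 (SE 0.39) and -0.69 (SE 0.30). PMS1 had 26.6 and 12.2 CPM in pos, against 24.3, 30.3 and 37.9 CPM in neg, and with a transcript of 3156 nt it was still at -0.61 after the length trend was removed. PMS2 had 23.9 and 12.8 CPM in pos, against 28.4, 30.4 and 30.0 CPM in neg, and was at -0.29 in that fit. EXO1, the nuclease that removes the mismatched strand, had 14.5 and 13.7 CPM in pos, against 12.2, 9.37 and 12.4 CPM in neg.

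Ratios of partner genes within a library do not depend on the scaling between libraries. They were taken on CPM per kb of canonical transcript, for 9 pairs of known partners picked after the levels were seen, and were not tested. BRCA1 stood at 1.25 and 1.62 times BARD1 in pos, against 3.59, 4.25 and 3.09 times in neg. Both pos ratios were well under the neg mean of 3.64 ± 0.579 (SD, n = 3). The canonical transcripts measure 7088 nt for BRCA1 and 5478 nt for BARD1, while the median lengths of their coding transcripts are 6349 and 1283.5 nt, and the part of length in this ratio was not tested. XRCC6 stood at 1.09 and 2.17 times XRCC5 in pos, against 1.21, 1.02 and 0.937 times in neg, so that only pos replicate 3 departed. PRKDC stood at 0.0479 and 0.0184 times XRCC5 in pos, against 0.0732, 0.0928 and 0.122 times in neg, with the groups apart. The PRKDC transcript measures 13459 nt and that of XRCC5 3379 nt, and the part of length in this ratio was not tested either. FANCI stood at 2.61 and 3.49 times FANCD2 in pos, against 2.86, 2.34 and 2.52 times in neg, and MSH6 at 3.17 and 2.30 times MSH3 in pos, against 2.34, 1.86 and 2.03 times in neg. The groups overlapped for both of these pairs. They overlapped too for PMS2 over PMS1, at 0.556 and 0.646 in pos and 0.491 to 0.723 in neg, and for NBN over RAD50, at 2.80 and 1.98 in pos and 1.66 to 2.22 in neg. CHEK1 stood at 3.40 and 5.43 times its activating kinase ATR in pos, against 2.08, 1.62 and 1.79 times in neg, and CHEK2 at 2.27 and 6.67 times ATM in pos, against 1.24, 0.952 and 0.636 times in neg. In both of these pairs the kinase that acts first has the longer transcript, and pos lay above neg.

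**Figure D5:**
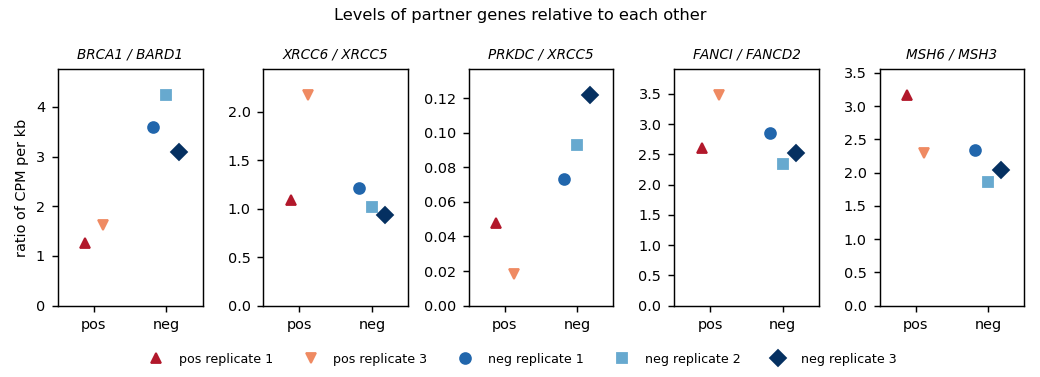
Ratio of CPM per kb between partner genes (y axis, from 0) in each library, pos left of neg. The BRCA1 to BARD1 ratio is 1.25 and 1.62 in pos and 3.09 to 4.25 in neg, and the PRKDC to XRCC5 ratio is also lower in both pos libraries. The length trend is not removed here, and in both pairs the numerator has the longer transcript.

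Per kilobase the members spanned a wide range. Neg means ran from 0.717 CPM per kb for FANCM to 167 CPM per kb for XRCC6. The order at the top in neg was XRCC6 and XRCC5, which did not differ beyond their spread, then PARP1 at 50.4 and MSH6 at 20.5 CPM per kb. In pos it was XRCC6 at 315, XRCC5 at 203, PARP1 at 46.8 and UNG at 21.8 CPM per kb, with XRCC1 close behind at 21.6. In bulk RNA, fewer cells expressing a gene and less RNA per cell cannot be told apart.

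Of 148 further repair genes found in the table, 141 were tested, and 13 rose and 0 fell in pos (5.06% of all tested genes were called higher). Their median log2 fold change was 0.27 and their median transcript 3084.5 nt long. Recombination genes gave 5 of the 13, among 33. They included the single-strand binding subunits RPA3, with 29.9 and 61.3 CPM in pos, against 10.5, 9.74 and 7.64 CPM in neg, and RPA2 (log2 fold change 1.22, SE 0.19). The BRCA2-binding gene SHFM1 (DSS1) was at 1.46 (SE 0.26), and NABP2 and MND1 were the other two. RPA1, the large subunit, was at 0.25 (SE 0.20) and not called. With the length trend removed RPA1 passed as well (0.66, SE 0.15, edgeR adjusted p = 0.0362). RPA3, RPA2 and NABP2 also passed in that fit, MND1 did not (0.12), and SHFM1 had no length.

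Among 13 other Fanconi genes UBE2T, which with FANCL ubiquitinates FANCD2 and FANCI, rose to 63.1 and 89.8 CPM in pos, against 26.9, 25.1 and 21.4 CPM in neg (log2 fold change 1.64, SE 0.23, edgeR adjusted p = 0.0326). With the length trend removed it was at 0.66 and not past the threshold (edgeR adjusted p = 0.0596). C19orf40 (FAAP24), the partner of FANCM, was the other called gene (1.54, SE 0.33). Of 10 other mismatch repair genes the clamp PCNA (1.52) and the clamp loader subunit RFC4 (1.07, SE 0.17) rose. Of 21 other base excision genes the endonuclease APEX1, which cuts the site that UNG leaves, rose to 446 and 522 CPM in pos, against 267, 249 and 229 CPM in neg (log2 fold change 0.96, SE 0.19, edgeR adjusted p = 0.0417), and so did HMGB1 (1.22, SE 0.19). Of 22 nucleotide excision genes CETN2 rose (1.28, SE 0.23), and of 8 helicase complex genes RMI2, a subunit of the BLM complex, rose (1.59, SE 0.24). PCNA, RFC4, APEX1 and CETN2 did not pass with the length trend removed. None of 12 other end joining genes, 20 other damage signalling genes or 2 direct reversal genes was called by edgeR in either direction. At an unadjusted p under 0.05 they held 2, 4 and 2 higher genes and 0 lower, beside 19.1% and 15.5% of all tested genes, and DESeq2 called 1, 2 and 2 higher, beside 13.2%. Once the length trend was removed, edgeR called 5 of the 20 damage signalling genes higher, against 7.33% of tested genes. These were RNF8, a ubiquitin ligase at breaks (1.34), CLSPN, the adaptor through which ATR activates CHEK1 (1.33), TIMELESS, which protects replication forks (0.82), the phosphatase CDC25A (1.02) and TTI1 (0.68). As counted these 5 were at 0.72, 0.59, 0.34, 0.78 and 0.46, in the same order. With the length trend removed 1 of the 12 end joining genes also passed, TP53BP1, which shields broken ends from resection (0.74, SE 0.16, edgeR adjusted p = 0.0322). As counted it was at -0.07 (SE 0.31, edgeR adjusted p = 0.886), and its canonical transcript measures 10369 nt. Over all further repair genes with a length, 15 of 138 rose and 1 fell with the length trend removed, against 7.33% and 6.74% of tested genes. The 1 that fell was the recombination gene BRE (-0.66, SE 0.17, edgeR adjusted p = 0.0475), which was at -0.17 as counted.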

How the data were processed

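RNA of SW620 cells was measured with stranded mRNA libraries, and raw counts by gene symbol were deposited as 1 table. STAR 2.5.2b, CASAVA 1.8.2 and DESeq2 1.24.0 are named in the submitters' processing notes. The build is hg19 in those notes and GRCh38 in the labels' protocols, and neither the counting program nor its strand setting is stated there. Columns were assigned to libraries by title. The labels speak of triplicates without saying that these were separate cultures, so p-values measure only the spread between these libraries.

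After 92 spike-in rows with no reads were left out, genes were filtered with filterByExpr (minimum count 10, minimum total 15), scaled by TMM and tested for pos against neg, two-sided, with edgeR 4.0.16 quasi-likelihood fits in R 4.3.3 (limma 3.58.1) and Benjamini-Hochberg adjustment over 13604 genes. SE is the size of the log2 fold change over the square root of F. Log2 ratios used a prior count of 2. At these depths 3 counts equal 0.189 to 0.316 CPM, which covers counting error only. Lengths are of GENCODE 44 canonical transcripts, held by 97.5% of tested genes. For the length trend, each gene's mean over the libraries was first subtracted from its log2 CPM. The trend is each library's lowess fit (span 0.3) of these centred values on log2 length, removed as an offset. Of the members, 15 share exonic sequence with a coding gene on the other strand, XRCC3 and FANCI among them. Another 6 share it with one on the same strand: RAD50, CHEK1, RAD51D, RAD54B, FANCG and XRCC1. Alternatives were DESeq2 1.42.0, limma-voom, other scalings, filters and thresholds, a replicate block, each library left out, the length trend removed and, added after seeing the data, another length measure. The edgeR steps were tested on simulated data. They recovered 66 of 99 changes of 4-fold and 3 of 100 of 2-fold, with 1 false call among 13373 genes. With the length trend removed they recovered 64 of 96 and 3 of 97. A change of 2-fold would thus seldom be called, and a gene not called may still differ. The simulated libraries held no trend on length. They therefore cannot show how well its removal works, or how many false calls such a trend would give. The members and lists were chosen with earlier results of these data known.

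All members were named. Values per library were due for members past the threshold, for the 2 of highest mean level in each of 7 role groups and for those whose pos libraries diverged in sign by over 1 (log2), and those of further members were added after seeing them. Of each further repair list up to 3 called genes were named by p, and NABP2, MND1, RPA1, TP53BP1, BRE and the 5 damage signalling genes were added after their values were seen.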

Additional observations from a re-analysis of the deposited data

How the results depend on the processing

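The counts of members past the threshold moved with the processing, while UNG and XRCC1 were called with upper quartile scaling, DESeq2 size factors, limma-voom and both other filters. DESeq2 called 5 higher and 2 lower. Library size alone as scaling gave 0 higher, beside 1.09% of all genes. It moved the median of all genes to -0.41 and that of the members to -0.22. A threshold of 0.01 gave 0 members, and MUC1, the hairpin's target, did not pass it either (edgeR adjusted p = 0.0270). Leaving out each library gave 0 to 11 higher members, 0 to 15 lower and a median of -0.28 to 0.41. The 15 lower came without pos replicate 1, where 32.1% of all genes were lower, and the 11 higher without pos replicate 3, where 14.4% were higher. A lone pos library is there assumed to vary like neg. Without a neg library edgeR called 0 genes in all, with 2510 to 3033 at an unadjusted p under 0.05. With the length trend removed 7 members were higher and the median was 0.24, without pos replicate 1 as well 12 were higher, 6 lower and the median -0.06 (27.4% and 24.2% of all genes were higher and lower). Without pos replicate 3 as well 20 were higher and the median was 0.41 (16.7% of all genes were higher). With median transcript length, an alternative added after seeing the data, 5 were higher and the median was 0.16. With the replicate number as a block 0 members were higher, and of all genes 8 were higher and 79 lower. No label ties libraries of the same number together. Deviations of same-numbered libraries correlated at r = -0.44 and -0.45, but with 2 pos libraries their deviations mirror each other, so these are not separate checks and do not settle whether the numbers pair the libraries.

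Directions that turned were those of members not called in the edgeR fit to the counts as deposited. Some of these members, among them MSH6, PARP1 and BRIP1, were called in fits with a lone pos library, assumed to vary like neg. The log2 fold changes that turned were as follows. Under the block they were -0.024 for RAD51C, -0.021 for FANCM and -0.41 for BRIP1. With library size alone they were -0.16 for PALB2, -0.39 for RAD51C, -0.027 for RAD54L, -0.083 for RAD54B, -0.28 for FANCC, -0.17 for FANCE, -0.17 for FANCD2, -0.0038 for FANCI, -0.22 for BRIP1 and -0.057 for EXO1. With the length trend removed they were 0.023 for ATR, -0.13 for RAD51C, 0.10 for XRCC2, 0.37 for BLM, 0.14 for MSH6 and 0.12 for PARP1, and without pos replicate 3 as well 0.29 for NBN, 0.12 for ATR, -0.17 for RAD51C, 0.38 for XRCC2, 0.60 for BLM, 0.40 for XRCC4, 0.41 for MSH6 and 0.32 for PARP1. Without pos replicate 1 they were instead -0.044 for CHEK2, -0.061 for RAD51C, -0.47 for RAD54B, 0.061 for BLM, -0.32 for FANCE, 0.13 for FANCF, -0.34 for FANCL and -0.29 for BRIP1. With median transcript length they were 0.054 for NBN, 0.16 for ATR, -0.32 for RAD51C, 0.15 for XRCC2, -0.021 for RAD54L, 0.46 for BLM, -0.28 for FANCC, 0.14 for FANCF, 0.31 for MSH6, -0.028 for EXO1 and 0.33 for PARP1. Upper quartile scaling gave -0.018 for RAD51C and -0.0077 for BRIP1, no filter -0.0084 for RAD51C and -0.0056 for BRIP1 and limma-voom -0.34 for BRIP1. Leaving out each library moved the value over -0.47 to 1.20 for BARD1, -0.72 to 0.41 for BLM, -1.55 to 0.72 for BRIP1, -0.080 to 0.21 for FANCC, -0.21 to 0.44 for FANCD2, -0.10 to 0.38 for FANCE, -0.68 to 0.85 for FANCM, -0.70 to 0.29 for MSH6, -1.37 to 0.14 for NBN, -0.16 to 0.43 for PALB2, -0.53 to 0.22 for PARP1, -0.13 to 0.17 for RAD51C, -0.51 to 0.67 for RAD54B, -0.94 to 0.22 for XRCC2, -1.39 to 0.61 for XRCC4. Depth limits the genes of few reads, such as BRCA2 with 22 and XRCC4 with 24 reads in pos replicate 3. The cause of these changes was not tested.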
